A study of Mus musculus with 4 samples.

Results

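The 10 genes described here encode ion and water transport proteins of the colonocyte, the absorptive and secretory cell of the large intestine. They are the chloride/bicarbonate exchanger Slc26a3, the sodium/proton exchangers Slc9a3 and Slc9a2, the sodium channel subunit Scnn1a, the chloride channel Cftr, the sodium-potassium-chloride cotransporter Slc12a2, the carbonic anhydrases Car1, Car2 and Car4, and the water channel Aqp8. The genes were listed by name and are 10 of the 21410 autosomal protein-coding genes of the GENCODE M1 annotation on the mouse genome build mm9. From 5 kb upstream of the transcription start site (TSS) to the gene end they held 915 of the 4076373 autosomal 200-bp bins that could be tested, and all 10 had a promoter, a gene body and a last exon that could be tested.

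Methylation was read by whole-genome bisulfite sequencing of DNA from sorted cells of the colon of C57 mice, the offspring of Lgr5-EGFP-CreER reporter mice and wild-type C57 mice. Colonic intestinal stem cells (ISCs) were sorted as Lgr5-EGFP+ cells, and differentiated cells as EpCAM+ cells without the reporter, both at birth (P0) and on postnatal day 21 (P21), near the end of suckling. The reporter is known to be mosaic in this line, so cells without it are not free of stem cells by definition. At P0 litters were pooled, and the methods do not say that pups without the reporter were left out. Stem cells of such pups would carry no reporter. No gene was deleted and no agent was given to the mice. Each of the 4 groups had 1 library made from pooled mice (litters at P0, reporter-positive offspring at P21), so there were no replicates. The methods describe a pool of mice for each age and not for each population, so ISCs and differentiated cells of an age may come from the same mice. The tests below therefore compare the calls of 2 libraries and not the conditions, and the intervals cover counting error only. Both treat calls as independent. Reads copied by PCR without molecular identifiers can stem from 1 molecule, and 1 read over several CpGs gives a call at each of them. Where calls are linked in these ways, the p-values are too small and the intervals and limits too narrow.

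The colonic epithelium takes up sodium and chloride through paired apical exchangers for protons and bicarbonate, takes up further sodium through an epithelial channel under the control of aldosterone, and secretes chloride that enters the cell through a basolateral cotransporter and leaves it through an apical channel. Carbonic anhydrases supply the protons and bicarbonate for the exchangers, and water follows the ions. Cytosine methylation at CpG sites is usually low at CpG-rich promoters and high in gene bodies, and short stretches of low methylation within introns are often found at enhancers.

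The libraries held between 1023427645 and 1188114423 calls in all, a call being 1 read over 1 cytosine of a CpG. The median over the 915 bins was 57 calls for ISCs and 85 for differentiated cells at birth, and 62 and 73 at P21. At CpG-rich promoters the gap was wider, as in Slc12a2 with 2189 and 7236 calls at birth and 2499 and 4997 at P21. The body of Slc12a2 had 8626 and 11094 calls at birth and 8841 and 10003 at P21. A level of summed calls gives more weight to CpGs with more calls. As a check of the sorted cells, the promoters of 4 stem cell genes (Lgr5, Ascl2, Smoc2 and Axin2) had methylation levels between 1.49% and 6.57% over the 4 libraries. Among 7 epithelial genes the median promoter level was between 1.17% and 3.01%, with Krt20 above 50% in every library. The median over 6 leukocyte genes was between 74.3% and 78.3%, with Coro1a the lowest at 7.31% to 11.2%, and the 3 endothelial promoters were between 65.7% and 80.0%. The promoters of 4 mesenchymal genes had medians of 28.7% to 35.4% and those of 3 neural genes of 2.42% to 5.86%. With age, by the rule for promoters given below, 1 of these 16 promoters of other cell types was called in ISCs (Pdgfrb, 20.2 points higher at P21; 10.6% of all promoters were called) and 3 in differentiated cells (9.05% of all; Acta2 and Col1a1, 7.98 and 5.33 points higher, and Ptprc, where the level fell by 11.9 points). Between differentiated cells and ISCs, 1 of the 16 was called at P0 (Cdh5, with a difference of -9.20 points; 16.8% of all promoters) and 1 at P21 (Pdgfrb, -13.7 points; 12.8% of all). A promoter level is no measure of expression, and the part of other cells in the results was not tested.

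The sequences below are 200-bp bins of 4 of the genes that changed with age in both ISCs and differentiated cells. Within each gene they were chosen for the size of their change. They are the sites where the absorptive exchangers and Cftr changed most in both populations, with an additional site within 1 kb of the TSS for Slc26a3 and Slc9a3. The 4 genes themselves were not chosen by size. A bin of Scnn1a that is not printed gained 37.1 points in ISCs and 45.4 in differentiated cells, and no sequence of Slc12a2 is shown. Each is the plus strand of mm9, which is also the strand of the gene, with every CpG in capitals.

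Slc26a3 promoter bin, chr12:32122201-32122400: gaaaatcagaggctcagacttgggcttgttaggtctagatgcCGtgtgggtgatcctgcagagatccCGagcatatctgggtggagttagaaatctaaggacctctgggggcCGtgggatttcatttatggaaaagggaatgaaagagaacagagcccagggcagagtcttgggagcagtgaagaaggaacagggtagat
Slc26a3 exon 12 and intron 12 bin, chr12:32146601-32146800: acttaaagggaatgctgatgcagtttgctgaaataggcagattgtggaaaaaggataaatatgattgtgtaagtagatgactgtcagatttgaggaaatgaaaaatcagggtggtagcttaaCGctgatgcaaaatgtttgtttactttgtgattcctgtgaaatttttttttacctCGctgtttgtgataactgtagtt
Slc9a3 early intron 1 bin, chr13:74259601-74259800: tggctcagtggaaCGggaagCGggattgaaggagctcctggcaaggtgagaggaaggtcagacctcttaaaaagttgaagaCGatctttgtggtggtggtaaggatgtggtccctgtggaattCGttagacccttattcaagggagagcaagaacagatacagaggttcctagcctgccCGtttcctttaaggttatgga
Slc9a3 later intron 1 bin, chr13:74265201-74265400: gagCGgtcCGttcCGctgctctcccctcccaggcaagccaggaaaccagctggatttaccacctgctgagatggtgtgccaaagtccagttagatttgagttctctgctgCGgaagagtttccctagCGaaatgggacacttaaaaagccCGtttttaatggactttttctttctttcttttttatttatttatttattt
Slc9a2 intron 1 bin, chr1:40771801-40772000: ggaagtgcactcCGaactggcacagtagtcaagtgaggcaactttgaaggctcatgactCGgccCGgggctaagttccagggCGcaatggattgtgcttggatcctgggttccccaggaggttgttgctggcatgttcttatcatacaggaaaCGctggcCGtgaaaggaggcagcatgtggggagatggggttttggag
Cftr promoter bin, chr6:18120001-18120200: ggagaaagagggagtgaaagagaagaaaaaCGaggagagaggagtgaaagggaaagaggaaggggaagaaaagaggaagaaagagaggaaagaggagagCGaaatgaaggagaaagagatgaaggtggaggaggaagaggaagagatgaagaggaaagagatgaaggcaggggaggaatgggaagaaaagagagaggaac

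The Slc26a3 promoter bin held 3 CpGs and its exon 12 bin 2 CpGs, while the later Slc9a3 bin and the Slc9a2 bin held 6 each. Both strands of all bins were searched for 4 short motifs of transcription factors of the intestine. The later Slc9a3 bin held the HNF4A-type letters CAAAGTCCA at positions 80 to 88, which were found in 0.253% of all tested bins. The Slc26a3 promoter bin held the CDX2-type letters TTTATNG once, which were found in 9.47% of all tested bins. The TCF/LEF letters ATCAAAG, found in 3.28% of tested bins, and the motif of the glucocorticoid and mineralocorticoid receptors, found in 0.357%, had no match in the 6 sequences. A match of letters is a description and does not show that a factor binds.

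Most bins of the 10 genes were not called with age, and those that were called lost methylation more often than they gained it. At birth the mean over the 915 bins stood at 72.8% in ISCs and 73.0% in differentiated cells, and at P21 at 71.7% and 71.3%. A bin was called when its levels differed by more than 15 points and its adjusted p was below 0.05 (two-sided Fisher's exact test, Benjamini-Hochberg over all autosomal bins). The bins that changed with maturation (mDMRs) were 61 of 915 in ISCs, 14 with a gain and 47 with a loss, or 6.67% against 2.55% of all autosomal bins. In differentiated cells they were 66 of 915, 20 with a gain and 46 with a loss, or 7.21% against 2.85% of all autosomal bins. Over all autosomal bins, 1.07% gained and 1.48% lost methylation in ISCs, and 0.992% gained and 1.86% lost it in differentiated cells. The median difference of the 915 bins was 0.167 points in ISCs and 0 in differentiated cells, beside 0 and -0.0744 points over all autosomal bins.

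The mDMRs of both populations fell in part on the same bins, in libraries that may share the mice of an age. Of the 915 bins, 32 were called in both, 25 with a loss and 7 with a gain, and 0 were called in opposite directions. Opposite calls were also rare over all autosomal bins, with 320 beside 37822 called in both in the same direction. The 32 shared bins were 52.5% of the calls in ISCs and 48.5% of those in differentiated cells, and over all autosomal bins the shared calls were 36.3% and 32.5%. Of the 95 bins called in at least 1 population, 90 had the same sign in both (94.7%, against 81.2% over all autosomal bins), 4 had opposite signs (4.21%, against 18.5%) and 1 had no difference in ISCs.

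**Figure D1:**
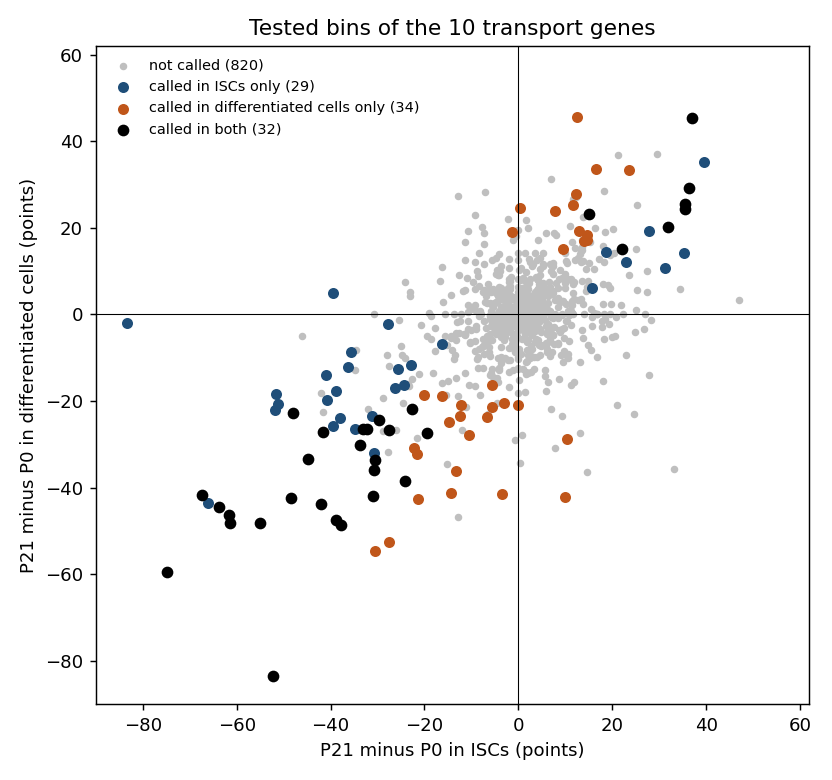
Change in methylation from P0 to P21 in ISCs (x axis, points) and in differentiated cells (y axis, points) for the 915 tested 200-bp bins of the 10 genes, each point a bin. The 32 bins called in both populations lie in the lower left (25 losses) and the upper right (7 gains) quadrants.

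The calls were spread unevenly over the genes. Slc26a3 (17.2%) and Slc12a2 (14.8%) had the highest shares of bins called in ISCs, and Car2 (15.8%), Slc12a2 (12%) and Slc26a3 (11.5%) in differentiated cells. Without Slc12a2 the other 9 genes had 40 called bins of 773 in ISCs, 14 gains and 26 losses (2.55% of all autosomal bins were called). In differentiated cells they had 49, 20 gains and 29 losses (2.85% of all). Slc12a2 thus held 21 of the 47 losses in ISCs and 17 of the 46 in differentiated cells. Car1, with 16 tested bins, had no called bin at either comparison of age. In Cftr, which had 154 tested bins, 3.90% were called in ISCs and 3.25% in differentiated cells, and in Slc9a2, with 210 bins, 1.90% and 4.76%.

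**Figure D2:**
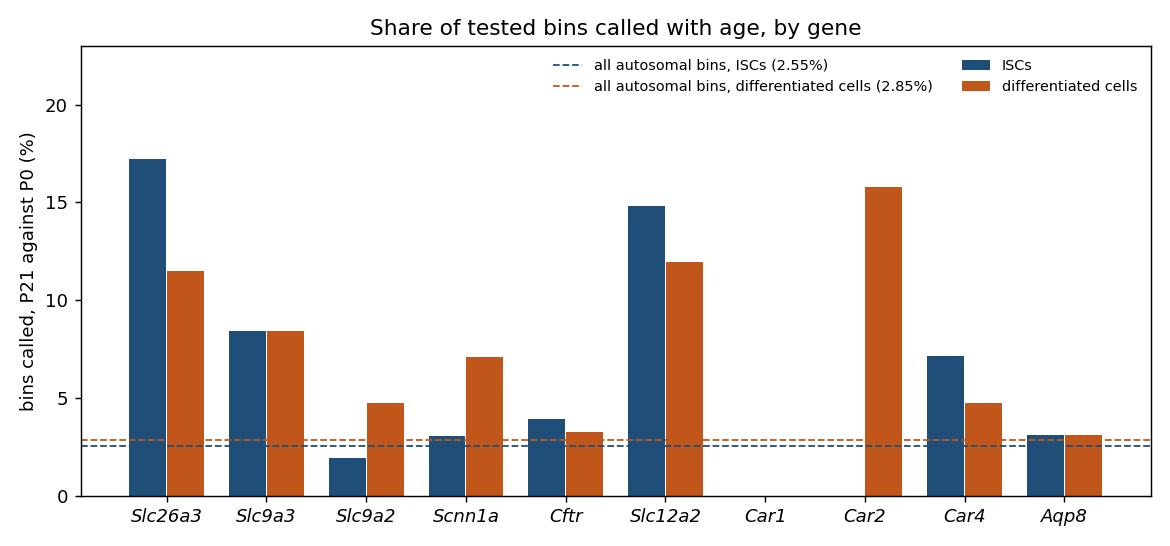
Share of the tested 200-bp bins of each gene that were called between P21 and P0 (y axis, percent), in ISCs and in differentiated cells, with dashed lines at the shares over all autosomal bins (2.55% and 2.85%). Slc26a3, Slc12a2, Slc9a3, Car4, Scnn1a, Cftr and Aqp8 stand above both lines in both populations (Aqp8 with 1 called bin in each), Slc9a2 and Car2 stand above them in differentiated cells, and Car1 has no called bin.

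The promoter, taken as the TSS with 1 kb on each side, was called when its level differed by more than 5 points at an adjusted p below 0.05 over all promoters (Fisher's exact test, Benjamini-Hochberg). With age, 4 of the 10 promoters were called in ISCs (2 gains and 2 losses; 10.6% of all promoters were called) and 3 in differentiated cells (1 gain and 2 losses; 9.05% of all). The promoters differed widely in their number of CpGs, from 4 in Car1 and 20 in Slc26a3 to 144 in Slc9a2 and 230 in Slc12a2, with a median of 62 over all promoters. The 4 promoters with the most CpGs, those of Slc12a2, Slc9a2, Car2 and Car4, were at or below 3.89% in every library and were not called with age.

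**Figure D3:**
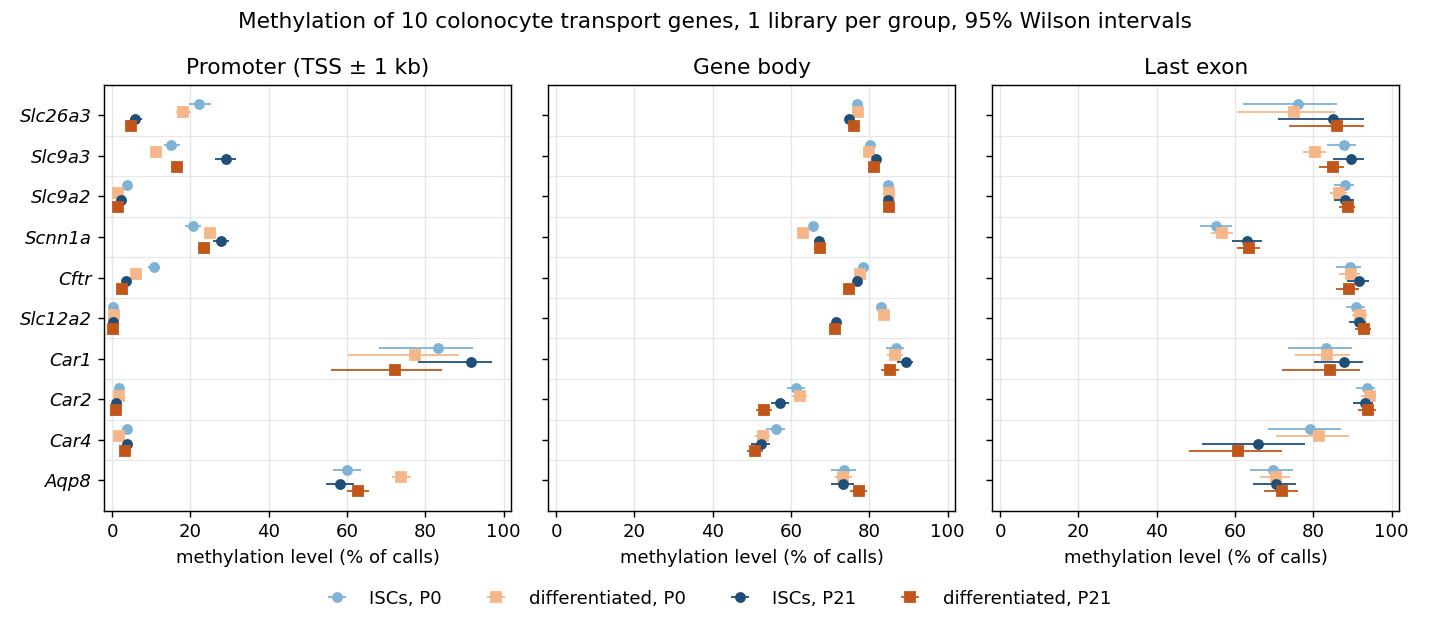
Methylation level (x axis, percent of calls) of the promoter, gene body and last exon of the 10 genes in the 4 libraries, with 95% Wilson intervals that cover counting error only. The Slc26a3 promoter lies lower at P21 than at P0 in both populations, the Slc12a2 body falls from about 83% to 71%, and the other bodies moved by less than 10 points with age.

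Slc26a3 (ENSMUSG00000001225.6, chr12:32075736-32158782, plus strand) encodes the apical chloride/bicarbonate exchanger of colonic chloride absorption, mutated in congenital chloride diarrhea. At birth its promoter stood at 22.3% in ISCs and 18.1% in differentiated cells, and at P21 at 5.88% and 4.93%, from 849 to 1450 calls. Both P21 libraries were lower than both P0 libraries. The level fell by 16.4 points in ISCs (95% interval -19.6 to -13.2, adjusted p = 6.85e-21) and by 13.2 points in differentiated cells (-15.5 to -10.9, adjusted p = 1.59e-26, Fisher's exact test for both). Between ISCs and differentiated cells the promoter differed by -4.12 points at P0 (interval -7.61 to -0.747), under the limit of 5 points, and by -0.953 at P21 (-3.02 to 0.947). With the mean of the bin levels, which gives each bin equal weight, the same promoter went from 29.7% and 26.5% to 11.9% and 10.7%. Such means were not tested, and a call given under them below combines their difference with the adjusted p of the summed calls.

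The called bins of the Slc26a3 promoter lay upstream of the TSS, and within 500 bp on either side the level still fell with age, by 12.2 points in ISCs and 9.7 points in the differentiated population. The bin shown above, centred at -783 bp from the TSS, went from 33.1% in ISCs and 31.3% in differentiated cells at birth to 5.50% and 4.62% at P21. All 3 of its CpGs took part, the first going from 54.4% and 36.6% to 6.85% and 10.8%. The neighbouring bin, centred at -983 bp, went from 60.1% and 59.1% to 40.7% and 31.6%.

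Further losses in Slc26a3 included bins of intron 1, of exon 8 and around exon 12. A bin of intron 1 centred 6817 bp after the TSS went from 39.6% in ISCs and 48.7% in differentiated cells to 0.730% and 1.15%, and both P21 libraries were near 0. The exon 12 and intron 12 bin shown above went from 79.2% and 77.6% to 24.2% and 29.4% (adjusted p = 4.18e-08 and 1.00e-10, Fisher's exact test), and its neighbour toward the TSS from 76.0% and 68.8% to 27.6% and 26.5%. The largest called loss of all 10 genes in ISCs was at exon 8, from 83.3% to 0 of 12 calls at P21, which allows a level of up to 25.0% (adjusted p = 0.00514, Fisher's exact test). That bin had 31.3% and 29.2% in differentiated cells at the 2 ages, from 16 and 24 calls, and so rested on few calls in every library. In all, Slc26a3 had 2 gains and 13 losses in ISCs and 1 gain and 9 losses in differentiated cells, of 87 bins, with 7 losses shared. The called shares were 17.2% and 11.5%, against 2.55% and 2.85% of all autosomal bins.

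The body of Slc26a3 as a whole differed little between the ages, from 76.8% and 77.1% at P0 to 74.8% and 76.2% at P21, and was not called. Its last exon had 40 to 50 calls in each library and levels between 75.0% and 86.0%, without a called difference. An upstream start annotated for another Slc26a3 transcript, at chr12:32075736, was methylated at 81.8% to 91.8%, while the start used here was the lowest of the 3 annotated protein-coding starts in every library. The 3 promoters closest to that of Slc26a3 over the 4 libraries, by Euclidean distance of the levels among 21097 promoters, were those of Entpd8 (4.30 points), 5330417C22Rik (4.38) and St6galnac2 (4.75). The Entpd8 promoter, for example, was at 18.9%, 20.6%, 5.10% and 4.65% in ISCs and differentiated cells at P0 and then at P21.

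Slc9a3 (ENSMUSG00000036123.6, chr13:74258963-74303512, plus strand) encodes NHE3, the apical sodium/proton exchanger that works beside Slc26a3. At birth its promoter stood at 15.1% in ISCs and 11.3% in differentiated cells, and at P21 at 29.0% and 16.5%. The direction was opposite to that of the Slc26a3 promoter, with both populations higher at P21. The rise was 13.8 points in ISCs (interval 10.5 to 17.2, adjusted p = 7.60e-14) and 5.16 points in differentiated cells (3.28 to 7.04, adjusted p = 1.52e-06, Fisher's exact test for both). The difference was 13.6 points in ISCs and 9.67 points in differentiated cells with the mean of the bin levels, and 7.91 and 7.52 points with the mean of the CpG levels, all called, and the rises of the populations were thus close to each other under the latter. At P21 the promoter was called 12.5 points lower in differentiated cells than in ISCs (interval -15.6 to -9.52). That gap was 39.1% against 36.0% with the mean of the bin levels and 20.7% against 20.4% with the mean of the CpG levels, and neither was called; the cause was not tested.

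Most called gains of Slc9a3 lay within 5 kb after the TSS. The early intron 1 bin shown above, centred 738 bp after the TSS, went from 43.1% in ISCs and 41.6% in differentiated cells at birth to 79.4% and 70.8% at P21 (adjusted p = 5.56e-07 and 3.56e-06, Fisher's exact test). Adjacent bins 1938 and 2138 bp after the TSS went from 47.6% and 59.1% to 83.2% and 84.5%, and from 43.5% and 60.4% to 79.0% and 84.7%. Within 500 bp of the TSS the promoter stayed lower, at 7.76% and 6.96% at P0 and 12.4% and 9.54% at P21, and was not called.

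Further into intron 1 the direction turned. The later intron 1 bin shown above, 6338 bp after the TSS, went from 50.6% in ISCs and 26.7% in differentiated cells to 2.74% and 4.08% (adjusted p = 2.04e-09 and 0.00109, Fisher's exact test). A bin 17538 bp after the TSS went from 39.6% to 3.33% in differentiated cells (called), with 21.6% and 8.33% in ISCs (not called). Over the gene, 6 bins gained and 2 lost methylation in ISCs, and 5 gained and 3 lost it in differentiated cells, of 95 tested. That is 8.42% in each population, against 2.55% and 2.85% of all autosomal bins.

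**Figure D4:**
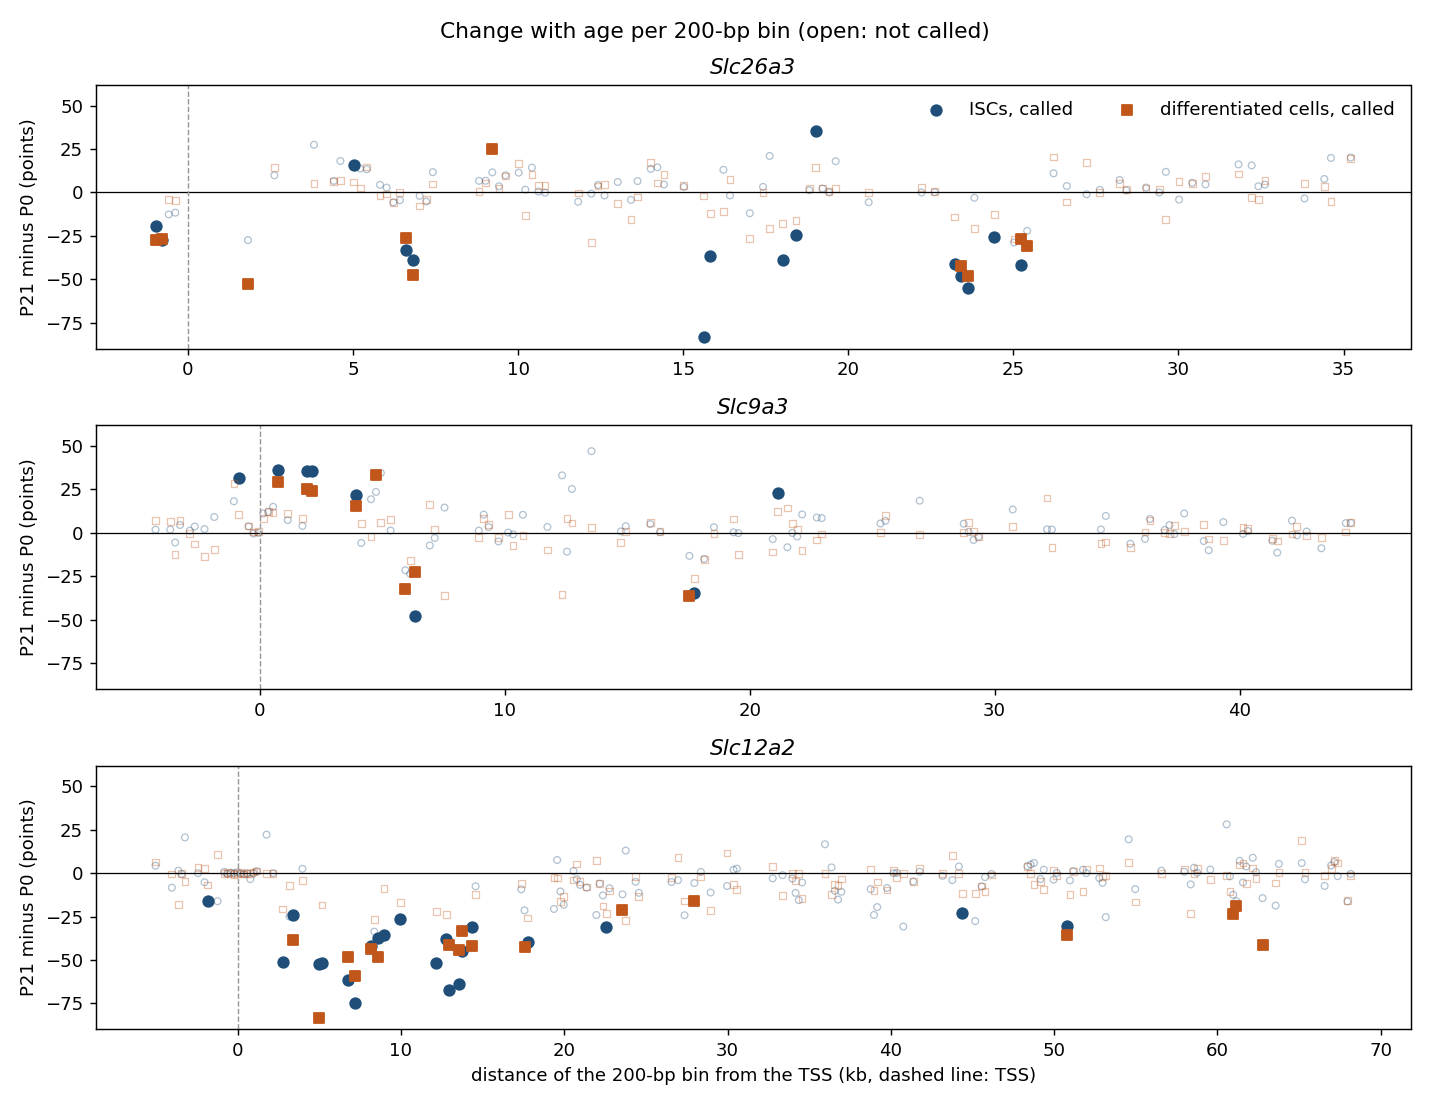
Difference in methylation between P21 and P0 (y axis, points) of each tested 200-bp bin against its distance from the TSS (x axis, kb) in Slc26a3, Slc9a3 and Slc12a2, with filled symbols for called bins. Called losses of Slc26a3 lie upstream of the TSS, in intron 1 and in the later part of the gene, most called gains of Slc9a3 lie within 5 kb after the TSS, and most called losses of Slc12a2 lie between 2 and 18 kb.

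Slc9a2 (ENSMUSG00000026062.7, chr1:40738557-40825730, plus strand) encodes NHE2, a second apical sodium/proton exchanger. Its promoter was at 3.76%, 1.56%, 2.32% and 1.48% in ISCs and differentiated cells at P0 and then at P21, and its body was at 84.8% to 85.1% in all 4 libraries. Neither region was called. Of its 210 tested bins 1 gained and 3 lost methylation in ISCs (1.90%, against 2.55% of all autosomal bins), and 4 gained and 6 lost it in differentiated cells (4.76%, against 2.85%). The intron 1 bin shown above, 33344 bp after the TSS, had the largest loss of the gene called in both populations. It went from 83.9% in ISCs and 78.1% in differentiated cells at birth to 22.2% and 31.7% at P21 (adjusted p = 1.10e-14 and 6.99e-19, Fisher's exact test), and each of its 6 CpGs was lower at P21 in both populations. A bin of exon 10 near the end of the gene, with 10 CpGs, went the other way, from 72.7% and 66.7% to 87.7% and 89.9%. A bin of intron 5 gained 45.6 points in differentiated cells, from 11.5% to 57.1%, where ISCs had 42.5% and 54.9% (adjusted p = 2.50e-05 in differentiated cells and 0.796 in ISCs, Fisher's exact test).

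Scnn1a (ENSMUSG00000030340.8, chr6:125271358-125294958, plus strand) encodes the alpha subunit of the epithelial sodium channel ENaC. Its calls with age were gains in all but 1 bin: 3 gains in ISCs, and 6 gains and 1 loss in differentiated cells, of 99 bins. The share in ISCs (3.03%) was near the 2.55% of all autosomal bins. In differentiated cells it was 7.07%, against 2.85% of all. The bin of intron 7 went from 48.5% in ISCs and 41.6% in differentiated cells at birth to 85.5% and 87.0% at P21, the largest gain of the 10 genes that was called in both populations (adjusted p = 0.000289 and 6.72e-08, Fisher's exact test). A bin of intron 1 2543 bp after the TSS went from 28.8% to 62.5% in differentiated cells (adjusted p = 1.84e-06, Fisher's exact test) and from 35.9% to 52.5% in ISCs (not called). The last exon was at 55.2% and 56.6% at P0 and 63.2% and 63.5% at P21. The rise of 6.88 points in differentiated cells was called (interval 2.84 to 10.9, adjusted p = 0.0103) and that of 7.98 points in ISCs was not (2.34 to 13.6, adjusted p = 0.0535, Fisher's exact test for both). With at least 50 calls required in a region, the same 7.98 points in ISCs were called too. The promoter was at 20.6%, 24.9%, 27.7% and 23.4% in the same order, with a called gain of 7.14 points in ISCs and a difference of -1.47 points in differentiated cells that was not called. With the mean of the bin levels the ISC promoter was at 28.3% and 32.5% at the 2 ages, and the gain was not called. Within 500 bp of the TSS the ISC gain was 1.61 points and not called, and with the mean of the CpG levels it was 5.23 points and called.

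Cftr (ENSMUSG00000041301.8, chr6:18120687-18272768, plus strand) encodes the apical chloride channel that is defective in cystic fibrosis. Its promoter was at 10.6% in ISCs and 6.19% in differentiated cells at birth, and at 3.61% and 2.50% at P21. The fall of 6.99 points in ISCs was called (interval -8.71 to -5.26, adjusted p = 1.38e-12), and the difference of -3.69 points in differentiated cells was under the limit of 5 points (-4.92 to -2.50, Fisher's exact test). The promoter bin shown above, centred at -586 bp from the TSS, went from 44.5% and 46.2% to 14.1% and 12.6%. This bin is made almost wholly of A and G, and its 2 CpGs had 253 to 373 calls in each library. Its second CpG went from 68.0% and 68.2% to 25.7% and 21.4%. Within 500 bp of the TSS the ISC promoter was at 1.82% and 0.547%, and with the mean of the CpG levels at 2.57% and 0.966%, and neither difference was called. With the mean of the bin levels the promoter was called in both populations, with differences of -6.56 points in ISCs and -6.70 points in differentiated cells. That mean is over 5 tested bins, and only the bin shown above was called among them in either population. It differed by -30.4 and -33.6 points, so the change of the mean came largely from this 1 bin.

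The other shared mDMR of Cftr lay in intron 1. That bin, 6814 bp after the TSS, went from 38.1% and 40.3% to 4.44% and 10.3%. A bin 3814 bp after the TSS went from 54.5% to 0 of 38 calls in differentiated cells, which leaves room for at most 7.89%, and had 30.4% of 23 calls and 0 of 15 calls in ISCs, which was not called (adjusted p = 5.68e-05 in differentiated cells and 0.300 in ISCs, Fisher's exact test). Of the 154 tested bins, 6 lost methylation in ISCs, and 1 gained and 4 lost it in differentiated cells. These shares of 3.90% and 3.25% were near those over all autosomal bins, 2.55% and 2.85%. An antisense transcript (Gm15592) and a pseudogene (Gm15595) are annotated within Cftr and share part of these bins.

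Slc12a2 (ENSMUSG00000024597.9, chr18:58038332-58106475, plus strand) encodes NKCC1, the basolateral cotransporter that loads the cell with chloride for secretion through Cftr. It had the clearest change of a gene body among the 10. The body was at 83.0% in ISCs and 83.7% in differentiated cells at birth, and at 71.5% and 71.3% at P21. Both populations were lower at P21, by 11.5 points in ISCs (interval -12.8 to -10.3, adjusted p = 2.04e-71) and by 12.4 points in differentiated cells (-13.5 to -11.2, adjusted p = 1.40e-100, Fisher's exact test for both). With age 1 of the 10 bodies was called in ISCs (8.08% of all bodies) and 2 in differentiated cells (8.54% of all). The promoter, with 230 CpGs, stayed between 0.200% and 0.373% and the last exon between 90.9% and 93.1%.

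Most of the called losses of Slc12a2 lay in intron 1. Of 24 tested bins of that intron beyond 1 kb from the TSS, 16 lost methylation in ISCs (66.7%) and 10 in differentiated cells (41.7%), and 0 gained it. Over all autosomal bins 1.48% and 1.86% lost it. Summed over the 24 bins of the intron, methylation at birth stood at 66.0% in ISCs and 64.0% in differentiated cells, and at P21 at 28.8% and 35.2%. The bin 7169 bp after the TSS went from 96.4% and 100% to 21.5% and 40.6% (adjusted p = 2.53e-15 and 2.71e-11, Fisher's exact test). The bin at 4969 bp had the largest called loss of the 10 genes in differentiated cells, from 87.5% to 4% of 25 calls, and went from 84.4% to 32.1% in ISCs (adjusted p = 1.73e-08 in differentiated cells and 0.00433 in ISCs, Fisher's exact test). At 12969 bp the level in ISCs went from 77.4% to 10% of 20 calls, beside 79.4% and 37.8% in differentiated cells. Nearer the TSS, the bin starting at 58041601 had 0 of 43 calls methylated in ISCs at P21, which allows a level of up to 6.98%. All 21 calls in ISCs and all 17 in differentiated cells were losses, over the 142 tested bins of the gene, and 11 were shared. They made up 14.8% and 12.0% of its bins, against 2.55% and 2.85% called over all autosomal bins.

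**Figure D5:**
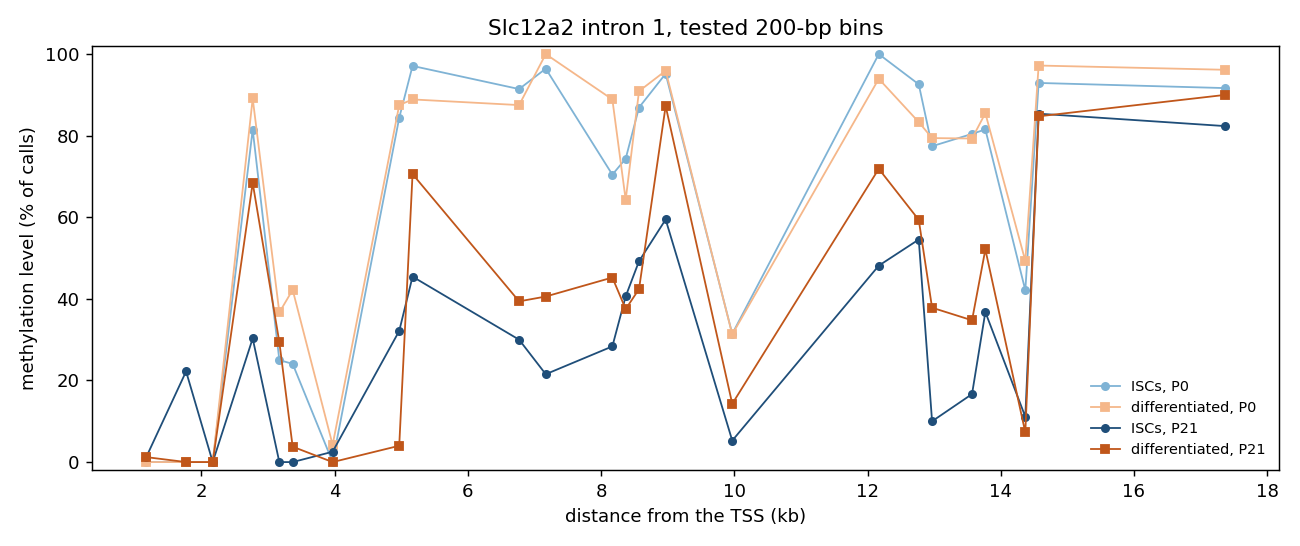
Methylation level (y axis, percent of calls) of the tested 200-bp bins of Slc12a2 intron 1 against distance from the TSS (x axis, kb) in the 4 libraries. The P21 libraries lie below the P0 libraries from about 5 to 14 kb, and the ISCs at P21 are at 10% at 13 kb, where the P0 libraries are at 77.4% and 79.4%.

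The carbonic anhydrases differed among themselves. Car2 (ENSMUSG00000027562.7, chr3:14886426-14900769, plus strand), a cytosolic enzyme, had an unmethylated promoter (0.973% to 1.69%) and a body at 61.3% in ISCs and 62.3% in differentiated cells at birth and 57.2% and 53.2% at P21. The fall of 9.13 points in differentiated cells was called (interval -11.9 to -6.32, adjusted p = 2.68e-09) and the difference of -4.13 points in ISCs was under the limit (-7.30 to -0.954, Fisher's exact test). The calls of Car2 were 1 gain and 5 losses in differentiated cells (15.8%, against 2.85% of all autosomal bins) and 0 in ISCs (2.55% of all), of 38 bins. At exon 2 a bin went from 28.5% to 0.592% in differentiated cells (called) and from 13.5% to 2.94% in ISCs (not called).

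Car4 (ENSMUSG00000000805.11, chr11:84771288-84779546, plus strand) encodes a carbonic anhydrase anchored at the apical membrane. Its promoter was at 3.89%, 1.71%, 3.72% and 3.20% and its body between 50.8% and 56.2%, without a called difference. A bin at -1989 bp from the TSS gained methylation in both populations, from 5.41% and 4.29% to 37.3% and 24.6%, and a bin of intron 2 lost it, from 25.0% and 28.9% to 2.44% and 7.03%. The last exon held only 2 CpGs and 47 to 72 calls, with levels from 60.7% to 81.5% and no call.

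Car1 (ENSMUSG00000027556.8, chr3:14766217-14778459, minus strand), a cytosolic carbonic anhydrase abundant in the colon, had only 4 CpGs in its promoter. These had 31 to 36 calls in each library and at birth stood at 83.3% in ISCs and 77.4% in differentiated cells, and at P21 at 91.7% and 72.2%. The intervals were wide: the change in ISCs was 8.33 points with an interval of -7.77 to 24.5, and that in differentiated cells -5.20 points with an interval of -24.9 to 15.8. Neither was called, and at this depth the counts allow a change of either sign within these intervals. The body was at 85.4% to 89.3% and was not called.

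Aqp8 (ENSMUSG00000030762.5, chr7:130605808-130611517, plus strand) encodes a water channel of the colonocyte. Its promoter, with 34 CpGs, was at 60.1% in ISCs and 73.9% in differentiated cells at birth and at 58.2% and 62.9% at P21. The library of differentiated cells at P0 was the highest. It was called above ISCs at P0 by 13.8 points (interval 9.46 to 18.2, adjusted p = 4.03e-09) and above differentiated cells at P21, the level falling by 11.1 points (-14.8 to -7.27, adjusted p = 2.90e-07, Fisher's exact test). With the mean of the bin levels the promoter was at 59.8%, 60.9%, 54.2% and 58.6%, and neither difference passed 5 points. With the mean of the CpG levels the difference between the populations at P0 turned to -0.506 points and that with age was -1.85 points, neither called, whereas within 500 bp of the TSS the difference at P0 was 18.8 points and the level with age fell by 22.2 points. Upstream, a bin at -1707 bp from the TSS rose in ISCs from 40.0% to 79.5%, the largest called gain of the 10 genes in ISCs (adjusted p = 0.0217, Fisher's exact test), and was at 47.1% and 82.4% in differentiated cells, from 17 calls at each age.

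Over the last exons of the 10 genes, 0 were called with age in ISCs (9.50% of all last exons were called; that of Scnn1a with the minimum of 50 calls) and 1, that of Scnn1a, in differentiated cells (10.3% of all).

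The comparison of differentiated cells with ISCs at the same age asked whether these transport genes carried other methylation in the stem cells. It gave few calls. At P0, 3 of the 915 bins were called (2 higher and 1 lower in differentiated cells, or 0.328%, against 0.508% of all autosomal bins). At P21 it was 3 bins (1 higher and 2 lower, or 0.328%, against 0.182% of all). By Fisher's exact test 1 of 10 promoters was called at P0 (16.8% of all promoters) and 1 at P21 (12.8% of all), and these were the promoters of Aqp8 and Slc9a3 given above. Of the bodies 0 were called at P0 (7.48% of all) and 0 at P21 (6.47% of all), and of the last exons 0 and 0 (6.57% and 4.73% of all). At P21 the Car2 body differed by -4.04 points, and it was called lower in differentiated cells with the mean of the bin levels (-7.33 points) and with the mean of the CpG levels (-5.14 points).

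The bin of Slc26a3 intron 8, 18017 bp after the TSS, had the largest called difference between the populations at P0, at 84.1% of 82 calls in ISCs and 48.5% of 132 calls in differentiated cells (adjusted p = 0.000332, Fisher's exact test). At P21 it was at 45.3% and 30.7% and was not called between the populations. The 2 bins higher in differentiated cells at P0 lay in Car4 intron 7 (64.4% and 93.8%, adjusted p = 0.0237) and Cftr intron 13 (76.0% and 100%, adjusted p = 0.0315, Fisher's exact test for both). At P21 a bin of Car2 intron 2 was at 60.0% of 65 calls in ISCs and 0 of 19 calls in differentiated cells, which allows a level of up to 15.8% (adjusted p = 0.00219, Fisher's exact test). The others were Slc9a2 intron 7 (78.6% in ISCs and 52.9% in differentiated cells, adjusted p = 0.00983) and Cftr intron 14 (67.1% and 95%, adjusted p = 0.0277, Fisher's exact test for both). None of the 6 bins was called at both ages.

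A list of 44 other transport genes was examined in the same way, comprising further exchangers, ENaC subunits and their regulators, sodium pumps, potassium and chloride channels, carbonic anhydrases and aquaporins. Of their promoters, 13 were called with age in ISCs (4 gains and 9 losses, 29.5% against 10.6% of all promoters) and 11 in differentiated cells (3 gains and 8 losses, 25.0% against 9.05%), with a median difference of -0.349 and -0.238 points beside -0.0791 and 0.0798 over all promoters. Their bodies gave 6 calls in ISCs (2 gains and 4 losses, 13.6% against 8.08% of all bodies) and 9 in differentiated cells (1 and 8, 20.5% against 8.54%). Their 41 tested last exons gave 7 calls in ISCs (5 and 2, 17.1% against 9.50% of all) and 5 in differentiated cells (1 and 4, 12.2% against 10.3%).

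The largest falls were those of 2 water channels. The promoter of Aqp4 went from 58.7% in ISCs and 57.2% in differentiated cells at birth to 9.25% and 7.74% at P21, a fall of 49.5 points in each. The promoter of Aqp1 went from 57.5% and 60.0% to 17.3% and 17.2%. Car12, a membrane-bound carbonic anhydrase, was at 24.6% and 8.41% in ISCs at the 2 ages, and Pdzk1, a scaffold of the apical membrane, rose from 63.1% to 83.0% in differentiated cells. Between the populations 7 of the 44 promoters were called at P0 (1 higher and 6 lower in differentiated cells, 15.9% against 16.8% of all promoters) and 6 at P21 (1 and 5, 13.6% against 12.8%), shares near those of all promoters. The largest were Car13 (30.5% and 14.6%), Slc9a3r2 (16.1% and 5.57%) and Pdzk1 (73.6% and 63.1%) in ISCs and differentiated cells at P0, and Scnn1b (19.4% and 8.83%), Nedd4l (58.3% and 67.5%) and Car13 (21.7% and 13.6%) at P21. With the mean of the bin levels Car13 was at 39.0% and 41.7% at P0 and at 29.2% and 28.9% at P21, and Slc9a3r2 at 25.2% and 24.6% and Pdzk1 at 74.7% and 67.3% at P0. At P21 Nedd4l was then at 61.1% and 63.3%, a difference under 5 points, and Scnn1b at 29.9% and 24.7%.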

How the data were processed

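Whole-genome bisulfite libraries of 4 sorted populations (1 each) were sequenced as paired-end reads. Per the labels and the methods of the study, DNA was ligated to adaptors, converted with the EZ DNA Methylation-Direct kit and amplified, and reads were mapped to mm9 with Bismark and Bowtie. Versions and the handling of duplicates were not given in the sources used here. Remaining duplicates would make the tests call too much, as would the linked calls of 1 read over several CpGs. The authors deposited, for each CpG cytosine of either strand, the count of all calls and the count of methylated calls. The deposited fraction of methylated calls was not used.

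Positions at no CpG of the reference (0.465% to 0.850% of a library) were left out and strands were summed. Groups came from the sample labels. Gene positions came from GENCODE M1, taking the transcript whose coding sequence was longest. The body ran from 1 kb after the TSS to the gene end without the last exon. A bin or region was tested when it held 2 or more CpGs with 10 or more calls in every library. Two-sided Fisher's exact tests were adjusted by Benjamini-Hochberg over all autosomal bins, or all regions of a kind. Levels have Wilson intervals and differences Newcombe intervals (both 95%). Where a level was 0, the limit is that of 3 calls. Distances are from the TSS to the bin centre. Python 3.11.15, numpy 2.4.6, scipy 1.17.1 and numba 0.67.0 were used.

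The 10 genes, the 44 other transport genes, the markers and the rule for named bins (the 3 largest gains and losses of each comparison, besides those of each gene) were chosen with earlier results of these data known. The alternatives were other minima of calls and CpGs, shifted bins, other sizes of difference, no test, a maximum of 1000 calls at a CpG, a narrower promoter and the mean of bin levels. The mean of CpG levels, the differences of single regions under each alternative and the counts without Slc12a2 were chosen after seeing the data. Under the means of bin and CpG levels only the difference was replaced, and the adjusted p stayed that of the summed calls. In simulated data at the observed depths, over 4076373 bins, 17.0% of 200 bins of intermediate level changed by 30 points were recovered for ISCs between the ages, and 81.5% where both libraries had at least 100 calls. Only these 200 bins were changed, whereas 104140 bins were called between the real ISC libraries. The adjustment was therefore stricter in the simulation, and its shares do not give the share of real changes found.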

Additional observations from a re-analysis of the deposited data

Results flagged for a closer look

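At 1 promoter and 4 bins the change with age was called in 1 population and had the opposite sign in the other. The difference between the populations in these changes was not tested. The Scnn1a promoter differed by 7.14 points in ISCs (called) and by -1.47 points in differentiated cells. In ISCs it differed by 1.61 points within 500 bp of the TSS and by 4.24 points with the mean of bin levels (neither called), and by 5.23 points with the mean of CpG levels (called). In differentiated cells its level was 28.5% at P0 and 29.3% at P21 with the mean of bin levels, and 29.8% and 31.5% with the mean of CpG levels, so the opposite sign was lost under both. Within 500 bp of the TSS it was 16.7% and 13.4%, and the opposite sign was kept. In Car2 the bin starting at 14883601, upstream of the TSS, differed by -1.25 points in ISCs and 19.1 points in differentiated cells (called). The Car2 bins of intron 2 starting at 14889001 and 14891601 differed by 10.3 and 10 points in ISCs and by -28.7 and -42.1 points in differentiated cells (both called), the latter with 19 calls in differentiated cells at P21. The Cftr bin of intron 3 starting at 18156401 differed by -39.4 points in ISCs (called) and by 5 points in differentiated cells, with 20 to 37 calls in each library.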

How the results depend on the processing

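The counts of called bins with age (61 in ISCs, 66 in differentiated cells) stayed within 1.5 times under a minimum of 20 calls, a minimum of 1 CpG, bins shifted by 100 bp and a maximum of 1000 calls at a CpG. Without a test, 173 bins in ISCs and 167 in differentiated cells of the 915 differed by more than 15 points between the ages (13.5% and 12.0% of all autosomal bins did), and 91 at P0 and 78 at P21 between the populations (10.6% and 9.47% of all; 3 bins each with the test). With more than 30 points, 30 of the 915 bins were called with age in differentiated cells (1.06% of all autosomal bins were called). Between the populations 1 was called at P0 (0.183% of all) and 1 at P21 (0.0728% of all). Shifted bins gave 5 calls of 916 between the populations at P0, where 0.508% of all shifted autosomal bins were called. Without Slc12a2, 40 of 773 bins were called between the ages for ISCs and 49 for differentiated cells (2.55% and 2.85% of all autosomal bins were called). The losses went from 47 to 26 and from 46 to 29.

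Of the promoters, bodies and last exons, 5 in ISCs and 6 in differentiated cells were called with age and 1 between the populations at each age. The shares of all promoters, bodies and last exons called by the main rule are given above. Such shares were not counted under the alternatives, so the counts that follow cannot be set against them. With more than 10 points the called regions were 3 and 3 with age. With a promoter of 500 bp on each side, 2 were called with age in ISCs and 0 between the populations at P21. The calls between the populations were 0 at P0 with the mean of bin levels, and 0 at P0 and 2 at P21 with the mean of CpG levels. The Aqp8 promoter, called 13.8 points higher in differentiated cells at P0, reversed to -0.506 points with the mean of CpG levels, and the cause was not tested. At P21 the call between the populations moved from the Slc9a3 promoter to the Car2 body with the mean of bin levels, and to the Car2 body and the Scnn1a promoter with the mean of CpG levels. The losses of the Slc26a3 promoter and of the Slc12a2 body were called in both populations under each region alternative. Under the means of bin and CpG levels these calls kept the adjusted p of the summed calls. The Car1 promoter had no value with the narrower window. No paired analysis was run, since each group had 1 library. Few calls in a bin limit the tests, and with 1 library for each group the age, the pool of mice and the library cannot be told apart.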
